A study of Mus musculus with 12 samples.

Results

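Potassium channel genes were followed in bulk RNA-sequencing of mouse brains at 14 d post-stroke. They were taken by name: mouse symbols that start with *Kcn* and a further letter, without host-gene antisense transcripts whose symbols end in os or contain ot, and without *Kcnj13*. The deposited table has 49315 rows, of which 99 symbols fitted this pattern and 4 were left out by name (*Kcnab3os*, *Kcnd3os*, *Kcnj13* and *Kcnq1ot1*). Of the remaining 95 genes, 88 had at least 50 reads summed over the 12 mice and make up the set, in 21 subfamilies. *Kcnk18* (66 reads) lay just inside this limit and *Kcnv2* (40 reads) just outside. The others outside were *Kcna10*, *Kcna7*, *Kcne1*, *Kcne3*, *Kcnj1* and *Kcnk16*. The set holds 86 protein-coding genes and 2 antisense RNAs, *Kcnmb4os1* and *Kcnmb4os2*, which the wording of the rule lets in.

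The 12 brains came from male CD45.1 Pep Boy mice that were transplanted at 8 to 12 weeks of age after irradiation with the head shielded. In the *Tet2*-KO group (n = 6) 10% of the transplanted BM cells came from CD45.2 *Tet2*-/- donors, in the WT group (n = 6) the same share came from CD45.2 *Tet2*+/+ donors, and in both groups the other 90% came from CD45.1 *Tet2*+/+ donors. All mice had a transient occlusion of the right middle cerebral artery for 30 min at 8 to 10 weeks after the transplant, so no brain without stroke enters the comparison. The hosts' own brain cells kept *Tet2* in both groups, and only part of the blood cells could lack it. Labels of the *Tet2*-KO samples disagree: the treatment field speaks of control cells, the title and genotype of the knockout, and the title and genotype were followed. The study calls the tissue whole brains and, elsewhere, whole hemispheres, so each value is an average over lesioned and spared tissue.

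Potassium channels let potassium flow out of, or into, a cell and thereby set its resting potential, shape and end its action potentials and limit repetitive firing. Voltage-gated subunits (*Kcna* to *Kcnd*, *Kcnh* and *Kcnq*) open on depolarization, and silent subunits (*Kcnf*, *Kcng*, *Kcns*, *Kcnv*) join *Kcnb* subunits and modify them. *Kcnma1*, *Kcnn* and *Kcnt* channels respond to intracellular calcium or sodium, inward rectifiers (*Kcnj*) hold the membrane near rest, and two-pore-domain channels (*Kcnk*) carry leak current. *Kcnab*, *Kcne*, *Kcnip* and *Kcnmb* genes code for auxiliary subunits. Most of these genes are used mainly by neurons in the brain, while *Kcnj10* and *Kcnj16* serve potassium uptake by astrocytes and *Kcnn4*, *Kcna3*, *Kcnk6* and *Kcnk13* are known from microglia, macrophages or lymphocytes.

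The libraries held between 12000261 and 15340787 counts in each WT mouse and between 12625047 and 21049763 in each *Tet2*-KO mouse, and the set took 0.461% to 0.664% of the counts of a mouse. *Tet2* itself, which the host brain keeps, had a mean of 132 ± 7.60 CPM (CPM is the read count scaled to a common library size and composition; SD, n = 6) in WT and 131 ± 7.79 CPM in *Tet2*-KO brains, so it did not check the labels. Certain mice stood apart in these genes. WT replicate 2 had the lowest value of its group in 50 of 83 tested genes of the set, and *Tet2*-KO replicate 5 in 35. The main results are therefore also given without these mice. *Tet2*-KO replicate 4 had the lowest value of its group in 25 of the genes, and *Tet2*-KO replicate 1 the highest in 31.

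Potassium channel genes were more often higher than lower in *Tet2*-KO brains at an unadjusted threshold, by small amounts, and none passed adjustment in edgeR. Of the 83 members with enough reads for a test, 36 (43.4%) were higher at an unadjusted p below 0.05 in edgeR, beside 10.8% of all 20290 genes tested. Another 8 (9.64%) were lower by the same measure, beside 12.2% of all genes. These shares of all genes, 10.8% higher and 12.2% lower, also belong beside the counts of subfamilies and lists below. In all, 67 of 83 had a positive log2 fold change, beside 52.3% of all genes. The median log2 fold change of the set was 0.19, or 13.9% higher, and that of all genes was 0.010. The 36 higher genes covered a narrow range from 0.15 to 0.46 and the 8 lower ones a wide range from -2.72 to -0.21. Bulk RNA cannot tell fewer cells of a type from less RNA per cell, so each difference may be either.

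None of these genes passed 0.05 after adjustment over all genes in edgeR, where 0.0246% of all genes did, and the smallest adjusted p of a member was 0.110. With the Wald test of DESeq2, the authors' own choice, the data put 7 members higher (*Kcna1*, *Kcnh1*, *Kcnip3*, *Kcnj12*, *Kcnj4*, *Kcnk4* and *Kcnt1*) and 1 lower (*Kcnj15*) at an adjusted p below 0.05, beside 0.922% and 3.32% of all genes. With limma-voom 11 were higher and 3 lower, beside 2.8% and 6.38% of all genes. Without *Tet2*-KO replicate 5, edgeR itself placed 14 higher and 5 lower past the adjusted threshold, beside 3.7% and 7.3% of all genes. Leaving out each mouse in turn gave 0 to 19 members past this threshold, and 19 was the number without *Tet2*-KO replicate 5. That mouse had the lowest summed level of the set in its group. Without WT replicate 2, the median log2 fold change of the set was 0.14 and 22 members were higher at an unadjusted p below 0.05. Without *Tet2*-KO replicate 1, 20 members were higher at that unadjusted threshold.

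**Figure D1:**
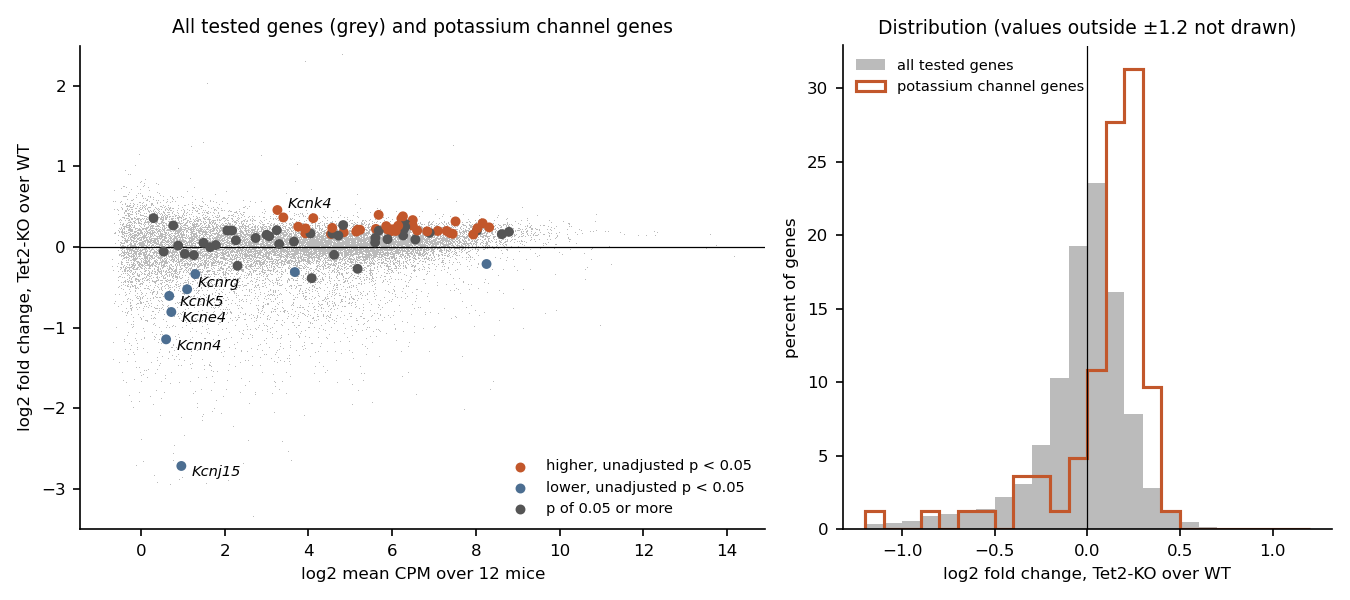
Left: log2 fold change (*Tet2*-KO over WT, edgeR) against log2 mean CPM for all 20290 tested genes (grey) and the 83 tested potassium channel genes (coloured by their unadjusted p). Right: percent of genes in bins of log2 fold change; the potassium channel genes peak to the right of 0 while all genes centre on a median of 0.010.

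Levels differed widely within the set. Per kilobase of exon, which allows genes to be compared, the highest WT level was that of *Kcnj10* with 60.5 CPM per kb, followed by the auxiliary gene *Kcnab2* with 43.4, the axonal channels *Kcna1* with 32.7 and *Kcna2* with 31.2, and the inward rectifier *Kcnj4* with 30.8. At the other end, *Kcnn4* had 0.404 and *Kcnj15* 0.537 CPM per kb. The tested members had a median of 6314 reads over the 12 mice, beside 2314 for all tested genes. Among the 42 members at or above the median count 27 were higher and 1 was lower, and among the 41 below it 9 were higher and 7 lower. The 5 members that were not tested (*Kcnk7*, *Kcnk15*, *Kcnk18*, *Kcnmb3* and *Kcnmb4os1*) had between 66 and 109 reads in all.

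The per-mouse values showed how the groups met. Summed over the set, the level was 5352 ± 407 CPM (SD, n = 6) in WT and 6064 ± 594 CPM in *Tet2*-KO brains. The lowest WT sum was the 4535 CPM of replicate 2, and the other WT mice lay between 5416 and 5604 CPM. In the *Tet2*-KO group replicates 5 and 4 had 5305 and 5386 CPM, within the WT range, and the other 4 had 6210 to 6806 CPM, above every WT mouse. Of the 36 higher genes, 30 had at least 4 *Tet2*-KO mice above all WT mice and 11 had at least 5. These genes were called from the same mice, so such counts partly follow from the call and are no separate evidence. The share over all genes was not counted. The groups did not overlap in 1 gene of the set, *Kcnk9*, beside 0.453% of all genes that were higher without overlap. No member was lower without overlap, beside 0.641% of all genes.

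**Figure D2:**
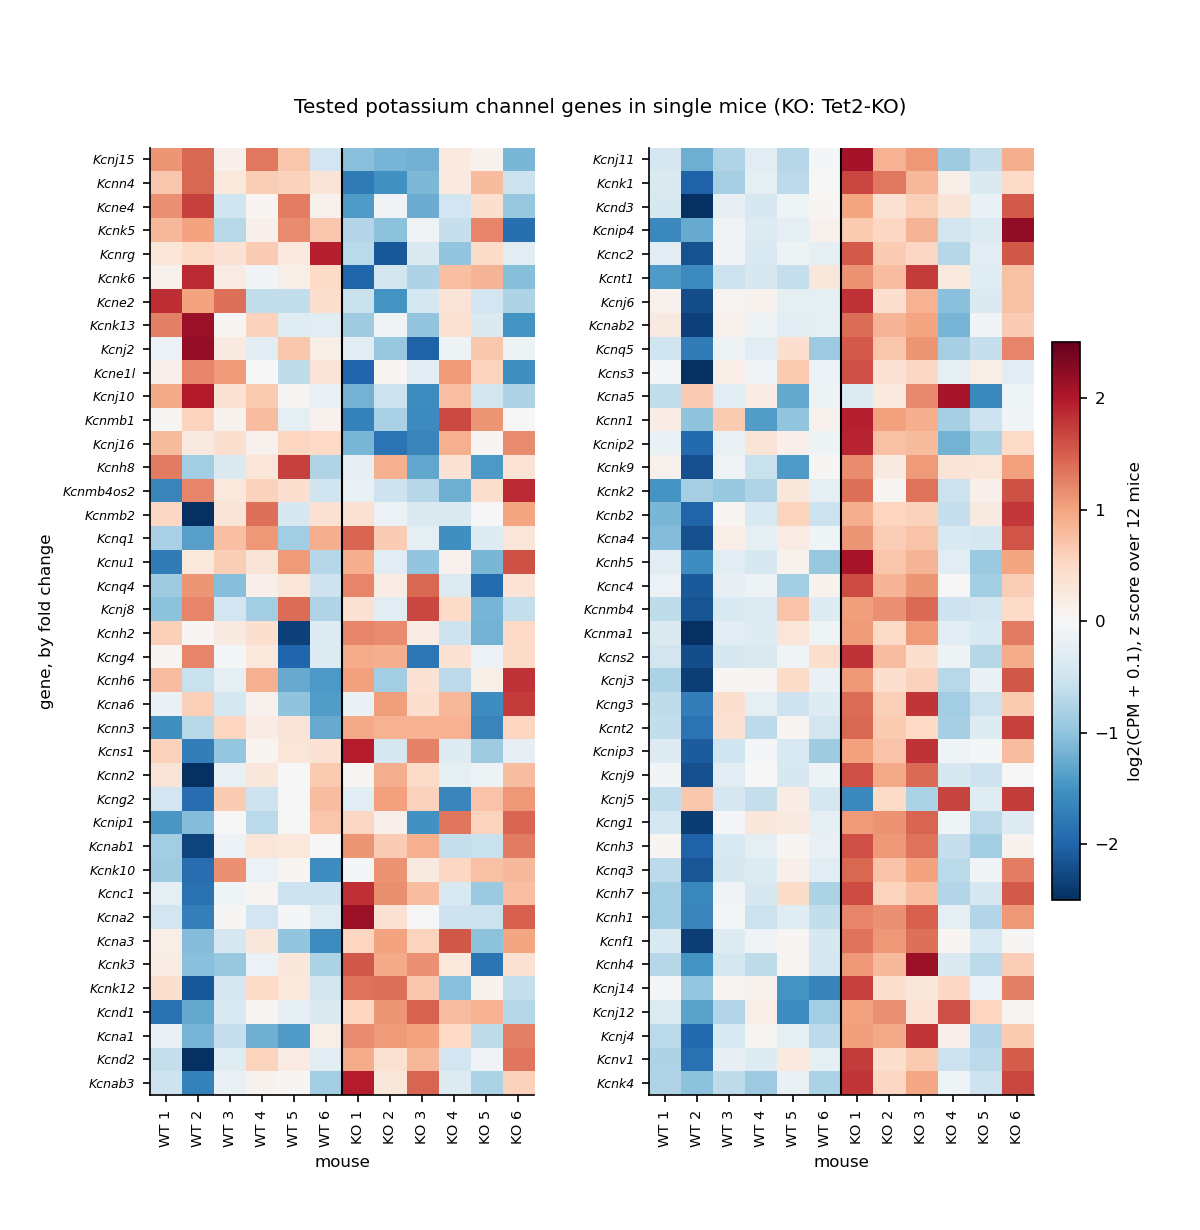
Heat map of 80 of the 83 tested potassium channel genes (rows, from the lowest to the highest fold change) in the 12 mice (columns), as log2(CPM + 0.1) scaled to a z score for each gene. WT replicate 2 has the lowest value of its group in 50 of the 83 genes, and *Tet2*-KO replicates 4 and 5 look more like WT mice than the other 4 do.

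The sequences upstream of 4 members are shown because these genes had the largest differences at each end: *Kcnj15* and *Kcnn4* the lowest, *Kcnk4* and *Kcnj4* among the highest fold changes with an available entry. They are the 250 bases before the annotated start in RefSeq (GRCm38.p6, the mm10 build), written 5′ to 3′ on the strand of the gene, and capitals mark CG dinucleotides, the sites that can carry methylation and that TET enzymes act on. The regions are chr16:95257308-95257557 (plus strand) for *Kcnj15*, chr7:24370013-24370262 (plus strand) for *Kcnn4*, chr15:79505242-79505491 (minus strand) for *Kcnj4* and chr19:6934516-6934765 (minus strand) for *Kcnk4*.
Kcnj15: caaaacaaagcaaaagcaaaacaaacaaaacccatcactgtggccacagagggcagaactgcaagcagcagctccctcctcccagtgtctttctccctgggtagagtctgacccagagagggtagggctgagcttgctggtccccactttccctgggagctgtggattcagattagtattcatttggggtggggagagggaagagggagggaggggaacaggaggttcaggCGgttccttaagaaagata
Kcnn4: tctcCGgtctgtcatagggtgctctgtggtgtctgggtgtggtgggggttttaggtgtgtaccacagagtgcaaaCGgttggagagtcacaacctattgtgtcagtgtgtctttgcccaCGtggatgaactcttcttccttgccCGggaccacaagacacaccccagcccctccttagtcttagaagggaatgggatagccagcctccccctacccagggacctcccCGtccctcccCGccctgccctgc
Kcnj4: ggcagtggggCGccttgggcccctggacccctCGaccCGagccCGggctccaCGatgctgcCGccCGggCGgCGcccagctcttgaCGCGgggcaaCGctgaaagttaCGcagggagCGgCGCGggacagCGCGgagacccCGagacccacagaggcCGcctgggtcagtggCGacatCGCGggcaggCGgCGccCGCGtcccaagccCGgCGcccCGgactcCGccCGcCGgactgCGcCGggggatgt
Kcnk4: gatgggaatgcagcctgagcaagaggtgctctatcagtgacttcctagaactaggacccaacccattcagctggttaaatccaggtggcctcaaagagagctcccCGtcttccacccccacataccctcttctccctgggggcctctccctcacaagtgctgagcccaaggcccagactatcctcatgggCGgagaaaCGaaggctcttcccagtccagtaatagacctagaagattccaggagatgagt

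The window of *Kcnj15* holds 1 CG dinucleotide, that of *Kcnk4* 3, that of *Kcnn4* 6 and that of *Kcnj4* 35. The median was 6 over all 32851 windows of this length and 8 over the 88 windows found for 64 of the 88 members. It was 11 over the windows of 24 higher members, 7 over those of 8 lower members and 8 over those of 32 members with neither call. The letters GGGCGG (the GC box, sought on both strands) occurred in 47.7% of the members' windows and 32.7% of all windows, among them those of *Kcnn4*, *Kcnj4* and *Kcnk4*. The letters TATAAA (both strands) occurred in 2.27% and 12.4%. These are descriptions of letters, and neither methylation nor factor binding was measured in these brains.

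Voltage-gated pore subunits differed mostly in one direction. Of 28 tested, 27 had a positive fold change, 17 were higher and none was lower at an unadjusted p below 0.05, with a median log2 fold change of 0.19. Their summed level was 3066 ± 266 CPM (SD, n = 6) in WT and 3537 ± 401 CPM in *Tet2*-KO brains. Among those higher were 3 of 6 *Kcna*, 2 of 3 *Kcnd*, 4 of 8 *Kcnh* and 2 of 5 *Kcnq* genes. The sum over the *Kcnh* genes was 21.1% higher in *Tet2*-KO brains, that over the *Kcnq* genes 16.8%, over the *Kcnd* genes 13.6%, over the *Kcnc* genes 12.9% and over the *Kcna* genes 11.7%.

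*Kcna1* (chr6:126640397-126646384, minus strand), the delayed rectifier of axons and their terminals, lay between 148 and 168 CPM in WT brains, with a median of 155. In *Tet2*-KO brains it lay between 157 and 184 CPM, with a median of 181. Replicate 5 alone of the *Tet2*-KO mice fell within the WT range and the other 5 were above every WT mouse. This gave a log2 fold change of 0.17 with an SE of 0.051, and the adjusted p was 0.121 in edgeR and 0.0395 in DESeq2. *Kcna2*, its usual partner in axons and the member of the subfamily with the most reads, had 371 ± 24.0 CPM in WT and 414 ± 50.4 CPM in *Tet2*-KO brains (SD, n = 6), which did not pass the unadjusted threshold. *Kcna3*, a channel of neurons and also of T cells and microglia, had 21.9 ± 1.49 CPM in WT and 24.5 ± 1.91 CPM in *Tet2*-KO brains, a log2 fold change of 0.16.

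*Kcnh1* (chr1:192190774-192510159, plus strand), an ether-à-go-go channel, lay between 67.1 and 88.2 CPM with a median of 80.5 in WT, and between 78.3 and 114 CPM with a median of 107 in *Tet2*-KO brains. The 2 lowest *Tet2*-KO mice, replicates 5 and 4, were within the WT range, and the other 4 were above it. Its log2 fold change was 0.33 with an SE of 0.093, and the adjusted p was 0.117 in edgeR and 0.0380 in DESeq2. Within the same subfamily *Kcnh7* had a log2 fold change of 0.32 and *Kcnh4* of 0.36, whereas *Kcnh2*, *Kcnh3*, *Kcnh6* and *Kcnh8* did not pass the unadjusted threshold, with log2 fold changes of 0.057, 0.29, 0.083 and -0.085 (*Kcnh8*, -0.13 without WT replicate 2). Adjusted p values of these were 0.163 for *Kcnh7* and 0.127 for *Kcnh4* in edgeR.

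Among the subunits of the M-current, which restrains repetitive firing, *Kcnq3* lay between 198 and 288 CPM in WT (median 265) and between 253 and 358 CPM in *Tet2*-KO brains (median 325). The ranges overlapped, with 4 *Tet2*-KO mice above all WT mice, and the log2 fold change was 0.30 with an SE of 0.097 (edgeR adjusted p = 0.128). *Kcnc1*, a channel of fast-spiking neurons, had a log2 fold change of 0.15 with an SE of 0.067 (edgeR adjusted p = 0.188), and *Kcnd2*, an A-type channel of dendrites, one of 0.18 with an SE of 0.085 that did not pass even the unadjusted threshold and was 0.11 without WT replicate 2.

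All 9 tested silent subunits had a positive fold change, with a median of 0.24 on the log2 scale, and 4 of them were higher at an unadjusted p below 0.05 (*Kcnf1*, *Kcng3*, *Kcns2* and *Kcnv1*). *Kcnv1* lay between 31.1 and 52.7 CPM in WT (median 46.3) and between 42.05 and 77.0 CPM in *Tet2*-KO brains (median 56.9). The groups overlapped, and replicate 1 was the highest *Tet2*-KO mouse. Its log2 fold change was 0.40 with an SE of 0.17 (edgeR adjusted p = 0.188). *Kcnf1* had a log2 fold change of 0.35 with all 12 mice and of 0.26 without WT replicate 2, which with 44.6 CPM lay far below the other WT mice at 67.1 to 73.4 CPM.

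**Figure D3:**
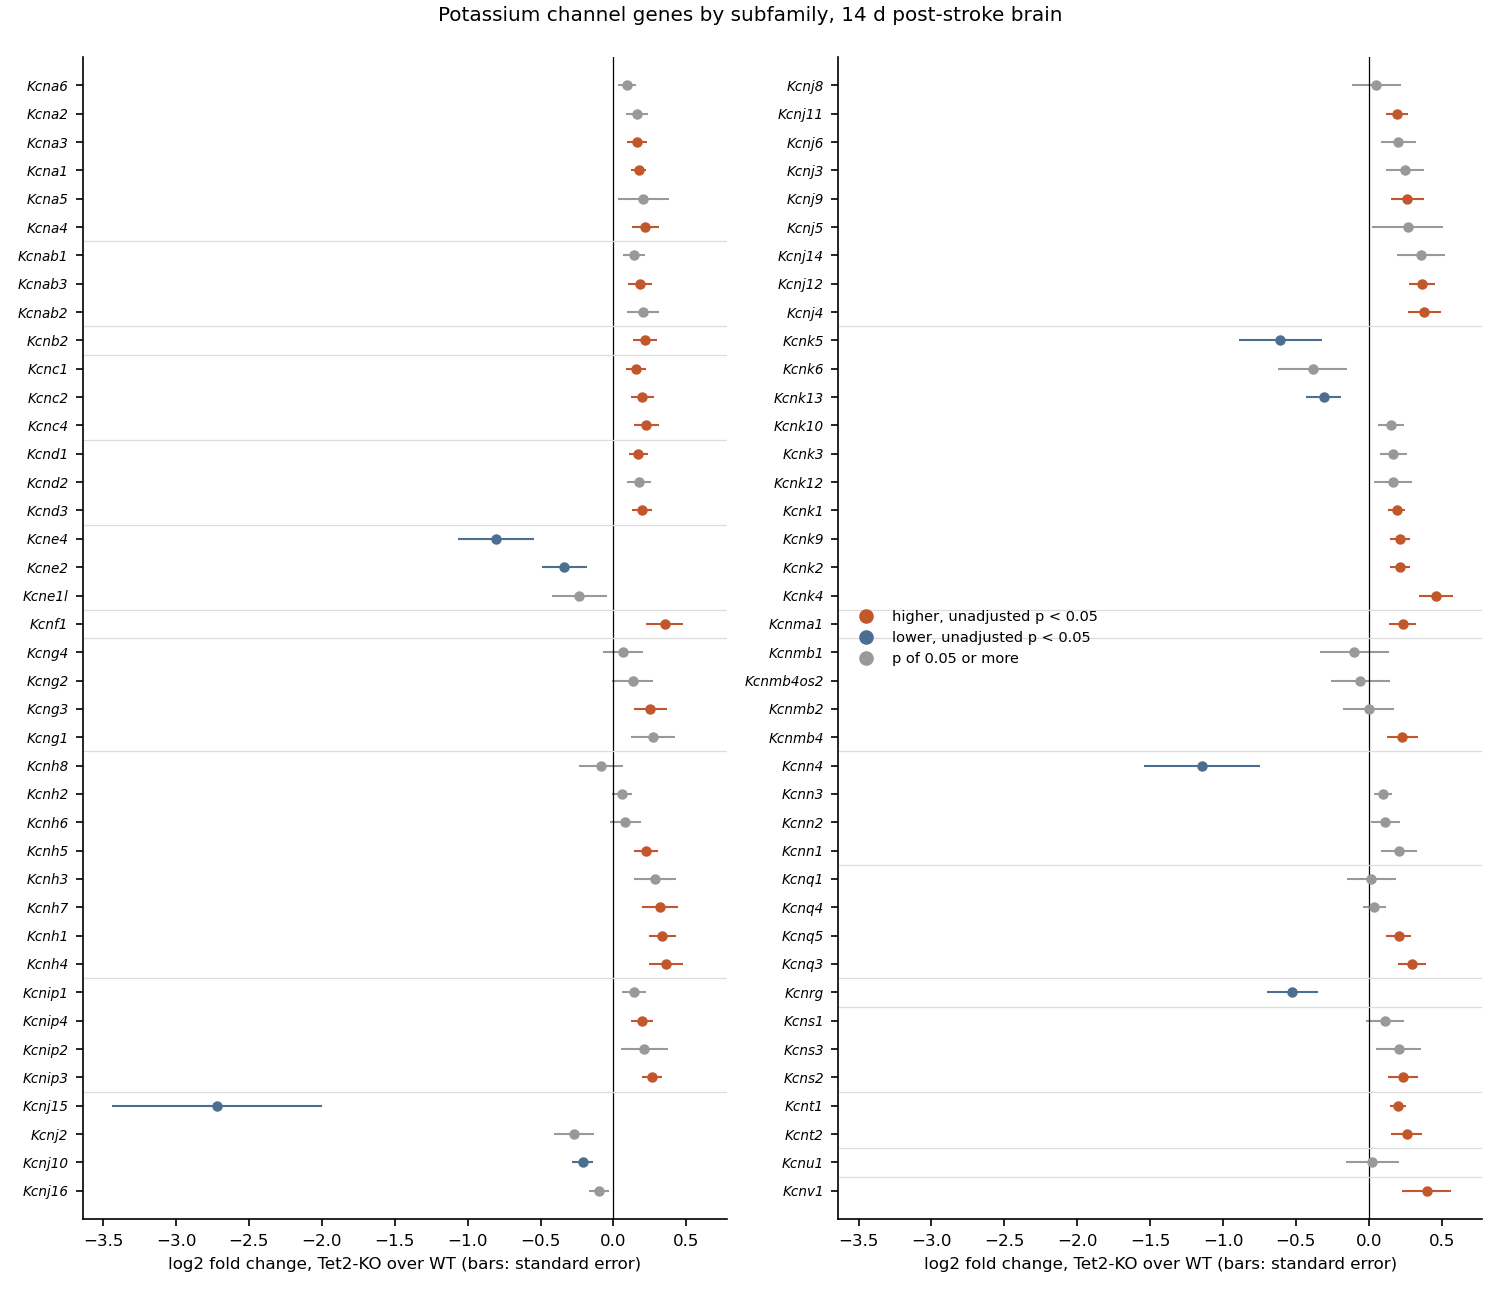
Log2 fold change (*Tet2*-KO over WT) with its standard error (bars) for 80 of the 83 tested genes, sorted by subfamily (grey lines divide subfamilies). Orange points are higher and blue points lower genes at an unadjusted edgeR p below 0.05; the orange points sit in a narrow band from 0.15 to 0.46, and *Kcnj15* lies farthest to the left at -2.72.

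The calcium- or sodium-activated channels divided. *Kcnt1* and *Kcnt2*, sodium-activated channels, and *Kcnma1*, the large-conductance calcium-activated channel, were higher, the small-conductance genes *Kcnn1*, *Kcnn2* and *Kcnn3* did not pass the unadjusted threshold, and *Kcnn4* was lower. *Kcnt1* (chr2:25863734-25918273, plus strand) lay between 134 and 161 CPM in WT (median 148) and between 152 and 186 CPM in *Tet2*-KO brains (median 169). Replicates 4 and 5 of the *Tet2*-KO group were within the WT range. The fold change (log2) came to 0.20 with an SE of 0.057, and the adjusted p was 0.118 in edgeR and 0.0442 in DESeq2. *Kcnma1* had 241 ± 32.3 CPM in WT and 283 ± 30.2 CPM in *Tet2*-KO brains (SD, n = 6), a log2 fold change of 0.23, or 0.16 without WT replicate 2. *Kcnu1*, a relative of *Kcnma1* known from sperm, had 3.42 ± 0.735 CPM in WT and 3.48 ± 0.877 CPM in *Tet2*-KO brains.

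*Kcnn4* (chr7:24370263-24386690, plus strand), the intermediate-conductance calcium-activated channel of microglia, macrophages and T cells, had 20 to 48 reads per WT mouse and 5 to 29 per *Tet2*-KO mouse. In WT brains it lay between 1.51 and 3.44 CPM (median 1.92) and in *Tet2*-KO brains between 0.310 and 2.20 CPM (median 0.692). Replicate 5 of the *Tet2*-KO group was the only one within the WT range, and the other 5 were below every WT mouse. This gave a log2 fold change of -1.15 with an SE of 0.40, and the adjusted p was 0.137 in edgeR and 0.0754 in DESeq2. Without *Tet2*-KO replicate 5 the log2 fold change was -1.51, with an adjusted p of 0.0205 in edgeR. Without WT replicate 2, the highest WT mouse, it was -0.94.

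The inward rectifiers differed in both directions, with almost no difference in sum. Their summed level was 693 ± 16.7 CPM in WT and 699 ± 25.9 CPM in *Tet2*-KO brains (SD, n = 6). A large part of this sum was *Kcnj10*, with a mean of 327 CPM in WT and 283 CPM in *Tet2*-KO brains. Of 13 genes tested, 9 had a positive and 4 a negative fold change, with a median of 0.20 on the log2 scale. At an unadjusted p below 0.05, 4 (30.8%) were higher (*Kcnj4*, *Kcnj9*, *Kcnj11* and *Kcnj12*) and 2 (15.4%) lower (*Kcnj10* and *Kcnj15*). The shares over all genes were 10.8% and 12.2%.

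*Kcnj12* (chr11:61022564-61071131, plus strand), a strong inward rectifier, had the smallest p of the set. It lay between 8.08 and 10.7 CPM in WT (median 9.15) and between 10.5 and 13.5 CPM in *Tet2*-KO brains (median 11.8). The ranges met only at their edges, with 5 *Tet2*-KO mice above all WT mice. Its log2 fold change was 0.37 with an SE of 0.089, and the adjusted p was 0.110 in edgeR and 0.0202 in DESeq2.

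*Kcnj4* (chr15:79483714-79505241, minus strand), a strong inward rectifier of forebrain neurons whose CG-rich upstream sequence is printed above, lay between 50.7 and 75.3 CPM in WT (median 67.5) and between 64.6 and 108 CPM in *Tet2*-KO brains (median 88.3). Again replicate 5 alone of the *Tet2*-KO mice fell within the WT range. The fold change (log2) came to 0.38 with an SE of 0.11, and the adjusted p was 0.123 in edgeR and 0.0462 in DESeq2. *Kcnj9* and *Kcnj11* had log2 fold changes of 0.26 and 0.19. *Kcnj9* codes for a subunit that G proteins open and *Kcnj11* for the pore of the ATP-sensitive channel.

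*Kcnj15* (chr16:95257558-95300260, plus strand), an inward rectifier best known from epithelia, had the largest difference of the set. It had 6 to 90 reads per WT mouse and 2 to 26 per *Tet2*-KO mouse, so counting error was wide. In WT brains it lay between 0.476 and 6.46 CPM (median 3.34) and in *Tet2*-KO brains between 0.134 and 1.34 CPM (median 0.170). The WT mice were widely spread, 4 of the *Tet2*-KO mice lay under all WT mice, and replicates 4 and 5 were within the WT range. This gave a log2 fold change of -2.72 with an SE of 0.72, and the adjusted p was 0.118 in edgeR and 0.0244 in DESeq2.

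*Kcnj10* (chr1:172341210-172374085, plus strand), the main potassium channel of astrocytes, lay between 297 and 381 CPM in WT (median 321) and between 252 and 331 CPM in *Tet2*-KO brains (median 281). In 5 *Tet2*-KO mice it was below every WT mouse, and replicate 4 was within the WT range. Its log2 fold change was -0.21 with an SE of 0.072 (edgeR adjusted p = 0.133), and -0.16 without WT replicate 2. *Kcnj16*, its astrocyte partner, had 25.3 ± 0.515 CPM in WT and 23.6 ± 2.62 CPM in *Tet2*-KO brains (SD, n = 6), a log2 fold change of -0.097 that did not pass the unadjusted threshold and was -0.062 without *Tet2*-KO replicate 2. *Kcnj2*, an inward rectifier of microglia and other cells, had a log2 fold change of -0.27 that did not pass it either and was -0.15 without WT replicate 2, and *Kcnj8*, a pericyte channel, had one of 0.052.

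**Figure D4:**
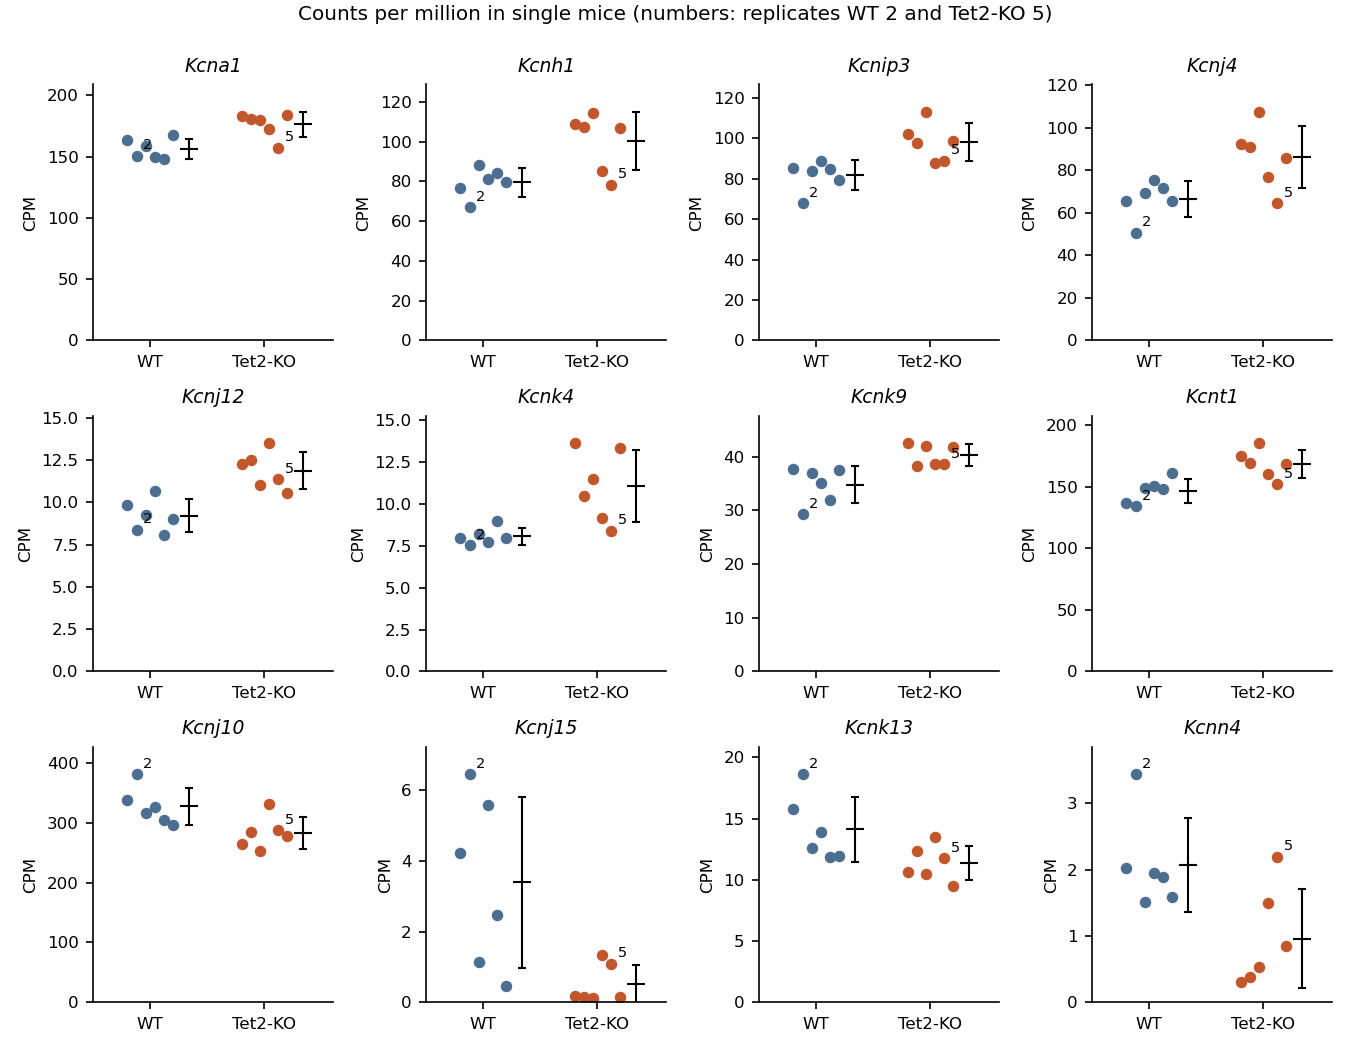
CPM of 12 potassium channel genes in single mice (points), with mean and SD of each group (black, n = 6; bars that reach below 0 are drawn to 0). In each of the 8 genes of the upper panels at least 4 *Tet2*-KO mice lie above the WT range, with no overlap in *Kcnk9*, and in each of the 4 genes of the bottom row at least 4 lie below it.

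Of 10 two-pore-domain genes tested, 4 were higher at an unadjusted p below 0.05 (*Kcnk1*, *Kcnk2*, *Kcnk4* and *Kcnk9*) and 2 lower (*Kcnk5* and *Kcnk13*). *Kcnk4* (chr19:6923966-6934515, minus strand), the mechanosensitive channel TRAAK of nodes of Ranvier, had the largest positive fold change of the set. It lay between 7.53 and 8.98 CPM in WT (median 7.95) and between 8.39 and 13.6 CPM in *Tet2*-KO brains (median 10.97). The WT mice were close together, 5 *Tet2*-KO mice were above all of them and replicate 5 was among them. The fold change (log2) came to 0.46 with an SE of 0.12, and the adjusted p was 0.110 in edgeR and 0.0222 in DESeq2. Exons of *Catsperz* overlap those of *Kcnk4* on the same strand, and its 448 reads, beside 1717 of *Kcnk4*, had a log2 fold change of 0.35.

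*Kcnk9* (chr15:72501089-72546340, minus strand), the acid-sensitive leak channel TASK-3, lay between 29.3 and 37.8 CPM in WT (median 36.1) and between 38.3 and 42.6 CPM in *Tet2*-KO brains (median 40.2). Every *Tet2*-KO mouse was above every WT mouse. This gave a log2 fold change of 0.21 with an SE of 0.066, and the adjusted p was 0.123 in edgeR and 0.0715 in DESeq2. *Kcnk1*, a weak leak channel, had a log2 fold change of 0.19, and *Kcnk2*, the mechanosensitive channel TREK-1, one of 0.21.

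*Kcnk13* (chr12:99964499-100062682, plus strand), the leak channel of microglia, lay between 11.9 and 18.6 CPM in WT (median 13.3) and between 9.54 and 13.5 CPM in *Tet2*-KO brains (median 11.2). The groups overlapped and 4 of the *Tet2*-KO mice lay under all WT mice. Its log2 fold change was -0.31 with an SE of 0.12 (edgeR adjusted p = 0.153), and -0.22 without WT replicate 2, the highest WT mouse. *Kcnk5* had 1.92 ± 0.515 CPM in WT and 1.27 ± 0.659 CPM in *Tet2*-KO brains (SD, n = 6), a log2 fold change of -0.61. *Kcnk6*, a leak channel of macrophages and microglia, had one of -0.39 that did not pass the unadjusted threshold, and -0.22 without WT replicate 2.

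Auxiliary subunits were mixed, counted here with the regulator *Kcnrg* and the antisense RNA *Kcnmb4os2*. Of 15 tested genes, 4 were higher at an unadjusted p below 0.05 (*Kcnab3*, *Kcnip3*, *Kcnip4* and *Kcnmb4*) and 3 lower (*Kcne2*, *Kcne4* and *Kcnrg*). *Kcnip3* (chr2:127456498-127522094, minus strand), a calcium-binding partner of *Kcnd* channels also known as DREAM, lay between 67.9 and 88.9 CPM in WT (median 84.3) and between 88.004 and 113 CPM in *Tet2*-KO brains (median 98.3). All *Tet2*-KO mice but replicate 4 were above every WT mouse. The fold change (log2) came to 0.26 with an SE of 0.071, and the adjusted p was 0.114 in edgeR and 0.0408 in DESeq2. *Kcnmb4*, the neuronal beta subunit of the *Kcnma1* channel, had a log2 fold change of 0.23, and its antisense neighbour *Kcnmb4os2* one of -0.058, which was 0.021 without WT replicate 2. Their exons overlap on opposite strands and the strand setting of the counting is not given in the sources used here, so their reads may be mixed. Exons of 28 members in all overlap those of another gene on one strand or the other, among them *Kcnq1* with 330 reads, which overlaps the antisense RNA *Kcnq1ot1* with 85297.

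All 3 *Kcne* genes, small subunits that alter the gating of voltage-gated pores, had negative fold changes. *Kcne4* had 2.11 ± 0.759 CPM in WT and 1.196 ± 0.383 CPM in *Tet2*-KO brains (SD, n = 6), a log2 fold change of -0.81 with an SE of 0.26 (edgeR adjusted p = 0.125), and -0.65 without WT replicate 2. *Kcne2*, a subunit of the choroid plexus, had one of -0.34, and *Kcne1l* one of -0.23 that did not pass the unadjusted threshold. Without *Tet2*-KO replicate 1, 4 or 6 the log2 fold change of Kcne1l was -0.12, -0.37 or -0.15. *Kcnrg*, a regulator that holds back *Kcna* channels, had 2.52 ± 0.485 CPM in WT and 1.78 ± 0.393 CPM in *Tet2*-KO brains, a difference of -0.52 on the log2 scale (edgeR adjusted p = 0.131). *Kcnmb1*, the beta subunit of smooth muscle, had 2.48 ± 0.286 CPM in WT and 2.32 ± 1.00 CPM in *Tet2*-KO brains.

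Genes known outside neurons formed a list of their own, chosen with earlier results of these data known. Of its 11 listed members (astrocytes, myeloid and lymphoid cells, vessel walls, choroid plexus), 1 (9.09%) was higher and 5 (45.5%) were lower at an unadjusted p below 0.05. The shares over all genes were 10.8% and 12.2%. The median log2 fold change of the list was -0.27. Of the other 72 tested members, 35 were higher and 3 lower, with a median of 0.20. The difference between the lists was not tested.

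Genes of proteins that assemble with the channels, or lie beside them in the membrane, were listed too. Of 23 tested partner genes, 11 (47.8%) were higher at an unadjusted p below 0.05, beside 10.8% of all genes, and none was lower. Their median log2 fold change was 0.16. *Dpp10*, which speeds *Kcnd* channels, had 111 ± 11.1 CPM in WT and 137 ± 13.9 CPM in *Tet2*-KO brains (SD, n = 6), a difference of 0.30 on the log2 scale (edgeR adjusted p = 0.110, DESeq2 0.0281). *Cntnap2*, which gathers *Kcna* channels beside the nodes of Ranvier, had one of 0.20. Of 9 genes for potassium pumps and cotransporters, 3 (33.3%) were higher and 1 (11.1%) lower, with a median of 0.027. The neuronal cotransporter *Slc12a5* had a log2 fold change of 0.20. The lower gene, *Slc12a7*, had one of -0.67 (edgeR adjusted p = 0.125, DESeq2 0.0251).

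Neuronal markers differed in the same direction as most of these genes. Of 12 neuronal markers, 10 were higher at an unadjusted p below 0.05 and none was lower, with a median log2 fold change of 0.23. Their summed level ranged from 5334 CPM (replicate 2) to 7691 CPM in WT and from 7008 to 9591 CPM in *Tet2*-KO brains, where replicates 4 and 5 were again lowest. For cortical neurons 4 of 6 markers were higher (median 0.26, 379 to 507 CPM in WT and 456 to 643 CPM in *Tet2*-KO brains). Of parvalbumin interneuron markers 2 of 5 were higher (median 0.093) and of striatal markers 1 of 6 (median 0.12). Of cerebellar markers 1 of 4 was higher (median 0.36), and their log2 fold changes ran from 0.18 to 2.02. Of 5 thalamic markers none was higher and 1 was lower (median -0.038). The part of the neuronal share in the differences of the channel genes was not tested.

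Markers of phagocytes and scar cells went the other way. Of 8 markers of activated phagocytes 7 were lower (median -1.45, 4031 to 9224 CPM in WT and 1127 to 4931 CPM in *Tet2*-KO brains), and the highest *Tet2*-KO sum was that of replicate 5. All 4 monocyte markers (median -1.84), both tested neutrophil markers (median -2.499) and all 6 fibroblast markers (median -1.33) were lower. None of 8 homeostatic microglial markers passed the unadjusted threshold (median -0.21, 817 to 1434 CPM in WT and 392 to 1044 CPM in *Tet2*-KO brains). Of astrocyte markers 1 of 6 was higher (16.7%, median 0.0078, 5364 to 5536 CPM in WT and 5310 to 6009 CPM in *Tet2*-KO brains). Most of this sum was the higher marker, *Slc1a2* (mean of 4063 CPM in WT, log2 fold change 0.13). In all, 3 of these markers had a positive and 3 a negative fold change. Among the negative ones were *Aqp4* (-0.40) and *Gja1* (-0.20), which did not pass the unadjusted threshold. Of reactive astrocyte markers 1 of 4 was lower (25.0%, median -0.64).

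The remaining lists held at most 2 calls each, beside 12.2% of all genes that were lower. Of endothelial markers 2 of 6 were lower (median -0.091), of mural cell markers 1 of 6 (median -0.25) and of choroid plexus markers 2 of 5 (median -0.27), while none of 6 oligodendrocyte markers (median 0.013) and none of 4 ependymal markers (median -0.27) passed the unadjusted threshold. No marker was at 0 in all mice. The part of these cell types in the lower level of *Kcnn4*, *Kcnk13*, *Kcnj10*, *Kcnj15* or *Kcne2* was not tested.

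**Figure D5:**
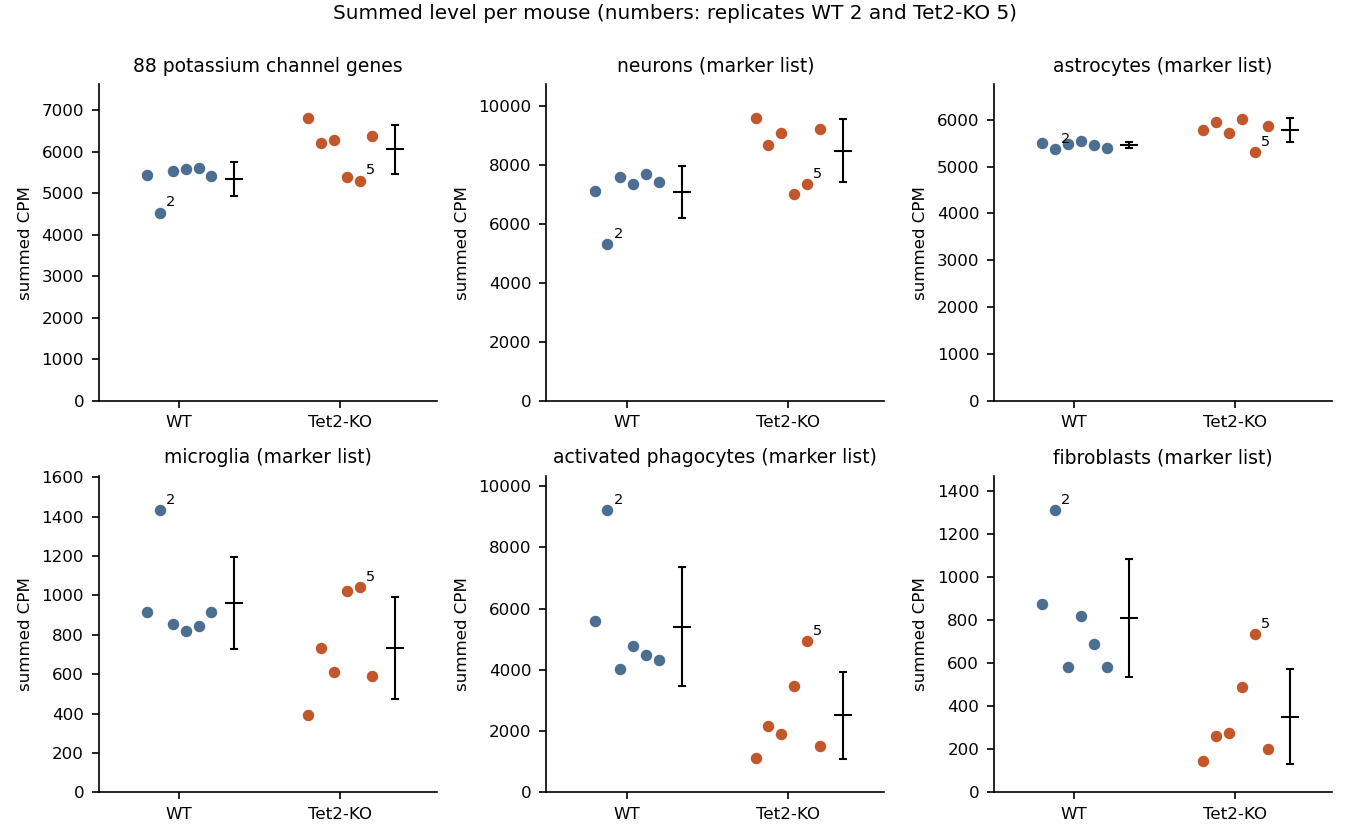
Summed CPM of the 88 potassium channel genes and of 5 marker lists in single mice (points), with mean and SD of each group (black, n = 6). *Tet2*-KO replicates 4 and 5 lie below the other *Tet2*-KO mice for channels and neuronal markers and above them for phagocyte and fibroblast markers, and WT replicate 2 is at the opposite end from the *Tet2*-KO group in each of these.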

How the data were processed

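RNA of 12 brains was sequenced in paired reads of 150 bases after depletion of ribosomal RNA. Per the labels and the study's methods, the authors trimmed reads with Trimmomatic 0.36, aligned them to mm10 with STAR 2.5.2b and counted unique exon reads with featureCounts of Subread 1.5.2 (tools and build as in the submitters' processing notes). The annotation release and strand setting are not given in the sources used here. The authors deposited these raw counts per gene, with no normalization. Groups came from titles and genotypes.

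Symbols, positions and exon lengths were taken from GENCODE M21, and 48970 of 49315 identifiers matched. In R 4.3.3, counts were filtered (filterByExpr), scaled (TMM) and tested in edgeR 4.0.16 (quasi-likelihood F test, robust, 12 mice, no covariates) with Benjamini-Hochberg adjustment over 20290 genes. The SE was taken as the size of the fold change (log2) over the root of the F statistic, and CPM carry no pseudocount (heat map: 0.1). "Higher" and "lower" mean an unadjusted p below 0.05 unless an adjusted p is named. Which of the sequenced mice shared a cage, transplant day or surgery day is not given in the sources used here, and p-values measure the spread between these samples.

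Members and lists were chosen with earlier results of these data known. The lists were channel partners, pumps and cotransporters, members known outside neurons, and markers of the cell types given in the text. Genes named by rule were those past the adjusted threshold in edgeR or DESeq2, up to 10 with the smallest p in each direction, the gene with the most reads of each subfamily, members known outside neurons, and those without overlap (38 in all; a few genes are not reported here). Other members were named after their values were seen.

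Alternatives were DESeq2 1.42.0 (Wald), limma-voom 3.58.1 with quality weights, upper quartile scaling, the size factors of DESeq2, all genes without filter, at least 10 counts in every library, at least 200 reads per member, pore subunits only, a replicate block, each library left out, and, chosen after seeing the data, protein-coding members only. The tests were tested on simulated data. The study's behaviour, staining and qRT-PCR data were not analysed here.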

Additional observations from a re-analysis of the deposited data

Results flagged for a closer look

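In 11 of 76 groups of 6 mice (38 named genes in WT and in *Tet2*-KO brains), 1 mouse lay far from the others by Dixon's test, where chance flags about 1 in 20. WT replicate 2 was the lowest of its group in *Kcna2* (325 CPM), *Kcnab2* (177 CPM), *Kcnc1* (203 CPM), *Kcnf1* (44.6 CPM), *Kcng1* (16.4 CPM) and *Kcnma1* (178 CPM). The same mouse was the highest of its group in *Kcnj2* (54.7 CPM), *Kcnk6* (29.6 CPM) and *Kcnn4* (3.44 CPM). It also had the lowest sum of neuronal markers and the highest sums of microglial, phagocyte and fibroblast markers of its group, and the part of these in its values was not tested. *Tet2*-KO replicate 5 was the lowest of its group in *Kcnn3* (51.7 CPM), and WT replicate 6 was the highest of its group in *Kcnrg* (3.49 CPM).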

How the results depend on the processing

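Of the counts and medians recomputed under the alternatives, 340 stayed close to the reported value, 9 moved and 5 reversed. For single genes, 677 values kept their direction and side of the adjusted threshold, 34 came to pass it and 8 reversed. None of these genes passed it in the main fit, so none could lose it. Changes at the unadjusted threshold are not counted in these single-gene values. The number of members past the adjusted threshold was 8 with DESeq2, 14 with limma-voom, and 0 to 19 when 1 mouse was left out, with 19 without *Tet2*-KO replicate 5. The number higher at an unadjusted p below 0.05 was 20 to 45 when 1 mouse was left out, falling to 20 without *Tet2*-KO replicate 1 and to 22 without replicate 6 of that group or replicate 2 of the WT group. The number lower was 5 with at least 10 counts in every library and 5 among pore subunits only, where fewer genes were tested, and 5 to 9 when 1 mouse was left out, with 5 without WT replicate 2. The median log2 fold change of the Kcnmb subfamily (-0.030) was 0.00345 with upper quartile scaling, 0.12 with no filter, which adds genes of few reads, and -0.080 to 0.042 when 1 mouse was left out. When 1 mouse was left out, the log2 fold change of *Kcnj8* ranged from -0.0449 to 0.139, that of *Kcnmb1* from -0.328 to 0.0147 and the log2 fold change of Kcnu1 from -0.0820 to 0.0956, and limma-voom gave -0.0338 for *Kcnu1*. The mice behind these reversals were *Tet2*-KO replicate 3 for *Kcnj8*, *Tet2*-KO replicates 1 and 3 for *Kcnmb1*, and replicates 1 and 6 of either group for *Kcnu1*. The cause was not tested for the other changes.

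The deviations of same-numbered mice correlated between -0.17 and 0.23, so replicate numbers gave no sign of pairs. Such correlations cannot exclude a shared cage, transplant day or surgery day. With a replicate block 27 members were higher and 7 lower at an unadjusted p below 0.05, none passed the adjusted threshold and the median was 0.18. Only replicate 6 of the WT mice correlated best with its own number. Genes with few reads, such as *Kcnj15* and *Kcnn4*, are limited by counting error.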
